A study of Mus musculus with 27 samples.

Results

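The 7 genes described here encode the machinery of antigen presentation by major histocompatibility complex (MHC) class II: H2-Ab1, H2-Aa and H2-Eb1 (chains of the class II molecules), Cd74 (the invariant chain), H2-DMa and H2-DMb1 (the peptide exchange factor H2-DM) and Ciita (the class II transactivator). They were chosen by symbol as members of this pathway, without a threshold on their values, and are 7 of the 40129 genes in the table of normalized reads. Earlier results of these data were known when they were chosen. All 7 passed the filter of a mean of at least 1 normalized read, which 27137 genes passed.

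Class II molecules carry peptides from endocytosed proteins to the cell surface, where CD4+ T cells read them. An alpha and a beta chain pair in the endoplasmic reticulum and are held by the invariant chain, which is cut away in the endosome before H2-DM exchanges the remaining fragment for a peptide. Professional antigen-presenting cells make these proteins constitutively. Interferon gamma can induce them in other cells through Ciita, which acts on a complex of Rfx, Creb and NF-Y proteins at the promoters. The healthy retinal parenchyma is known for low class II levels, and microglia are known to raise them on activation.

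In the model of oxygen-induced retinopathy (OIR), pups are kept in 75% oxygen from day 7 to day 12, lose central retinal vessels and, back in room air, form retinal neovascularization from the hypoxic retina. All mice were C57BL/6 wildtype by the labels (C57BL/6J by the study's methods), and whole retinas were taken at p14 or at p17 from OIR mice and from nOIR mice, the controls of the same age without the oxygen exposure. At p14, 6 nOIR mice were compared with 6 OIR mice, and at p17 there were 6 nOIR and 8 OIR mice. Another nOIR mouse of p14 (S4) was left out, following the study's methods, which give contamination with lens genes as the reason. Each library was 1 mouse, perfused before collection, with 1 or 2 retinas pooled. By the study's methods, the nOIR mice came from 3 litters at p14 (S4 included) and 2 at p17, and the OIR mice from 4 and 3. Which litter a mouse belonged to is not in the labels, and mice were taken as independent. Recovered totals were 17029536 to 33593428 reads per mouse (median 30024568 over 27 mice). The summed level of 10 retina markers was 669900 to 1076707 normalized reads per mouse, which fits the tissue label. At adjusted p under 0.05, 4 of the 10 were lower in OIR at p14 and 8 at p17, against 2.91% and 5.12% of all genes. In the same libraries, 5 measured lens markers summed to between 5.33 and 28499. S4 stood at 15448. The lens sums of nOIR p14 S5 (16682) and OIR p17 S2 (28499), S7 (15964) and S8 (20245) lay above it, and these mice were kept. In bulk retina, fewer cells of a type and less RNA per cell cannot be told apart.

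H2-Ab1, H2-Aa, H2-Eb1, H2-DMa and H2-DMb1 lie together on chromosome 17 (GRCm38, GENCODE M21). H2-Ab1 spans chr17:34257689-34269419 on the plus strand, H2-Aa spans chr17:34282744-34287823 on the minus strand and H2-Eb1 spans chr17:34305867-34316674 on the plus strand. H2-DMa (chr17:34119541-34139101) and H2-DMb1 (chr17:34153072-34160230) lie on the other side of H2-Ab1, both on the plus strand. Ciita (chr16:10480059-10528418, plus strand) and Cd74 lie on other chromosomes. The RefSeq promoter table (GRCm38.p6) matched 4 of the 7 genes, namely H2-Aa, H2-Eb1, H2-DMa and H2-DMb1. The sequences below are the 250 bases before the start of 2 neighbouring class II chains, H2-Aa and H2-Eb1, of which H2-Aa passed the test at p17 and H2-Eb1 did not (the difference between them was not tested). They are shown so that the responses can be read beside the promoters. Capitals mark CCAAT on either strand (ATTGG when read on the other strand), the core of the Y box that NF-Y binds, and AACTGATGATGCT (searched on both strands), the longest string that the windows of H2-Eb1 and H2-DMb1 share. The second string was thus chosen from these sequences. The first is chr17:34287824-34288073 on the minus strand and the second is chr17:34305617-34305866 on the plus strand, each 5′ to 3′.
H2-Aa: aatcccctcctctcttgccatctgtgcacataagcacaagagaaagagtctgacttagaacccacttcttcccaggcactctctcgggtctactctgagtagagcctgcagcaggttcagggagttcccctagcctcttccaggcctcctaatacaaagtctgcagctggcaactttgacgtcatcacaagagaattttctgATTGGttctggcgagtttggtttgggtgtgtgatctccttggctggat
H2-Eb1: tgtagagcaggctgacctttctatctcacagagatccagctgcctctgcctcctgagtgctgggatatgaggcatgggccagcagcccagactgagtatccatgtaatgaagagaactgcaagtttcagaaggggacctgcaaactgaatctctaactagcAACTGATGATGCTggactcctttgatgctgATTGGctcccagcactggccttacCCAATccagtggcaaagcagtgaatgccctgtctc
The H2-Aa window held CCAAT once, on the other strand, 48 bases before the start. The H2-Eb1 window held CCAAT at 59 bases (other strand) and 35 bases before the start, and AACTGATGATGCT at 89 bases. In H2-DMb1, AACTGATGATGCT began 92 bases and CCAAT (other strand) 61 bases before the RefSeq start. Of 2 RefSeq windows of H2-DMa, 1 held neither string and the other held CCAAT (other strand) 198 bases before the start. No 2 of these matches overlapped. Of all 32851 promoter windows of this length, 33.8% held CCAAT on either strand, and AACTGATGATGCT occurred in 2, those of H2-Eb1 and H2-DMb1. These are matches of letters, and no binding was measured.

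H2-Ab1 and Cd74 were upregulated in OIR retinas at both ages, and H2-Aa was upregulated at p17. H2-Eb1, H2-DMa, H2-DMb1 and Ciita did not pass the test at either age. H2-Ab1, the beta chain of the I-A molecule, had the largest log2 fold change of the 7 genes at each age. At adjusted p under 0.05, 2 of 7 genes were higher in OIR at p14, against 3.18% of all genes tested, and 3 of 7 at p17, against 7.39%. As differentially expressed genes (DEG, which also need a log2 fold change above 2 or below -2), 1 gene was called higher at p14, against 0.744%, and 3 at p17, against 1.9%. The members were chosen with earlier results of these data known, so these counts do not test the pathway. No member was called lower by limma, edgeR or DESeq2 at either age, and none was lower at an unadjusted p under 0.05. For comparison, 2.91% of all genes were called lower at p14 and 5.12% at p17. The median log2 fold change over the members was 0.10 for p14 and 0.76 for p17, against 0.02 and -0.02 over all genes tested.

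**Figure D1:**
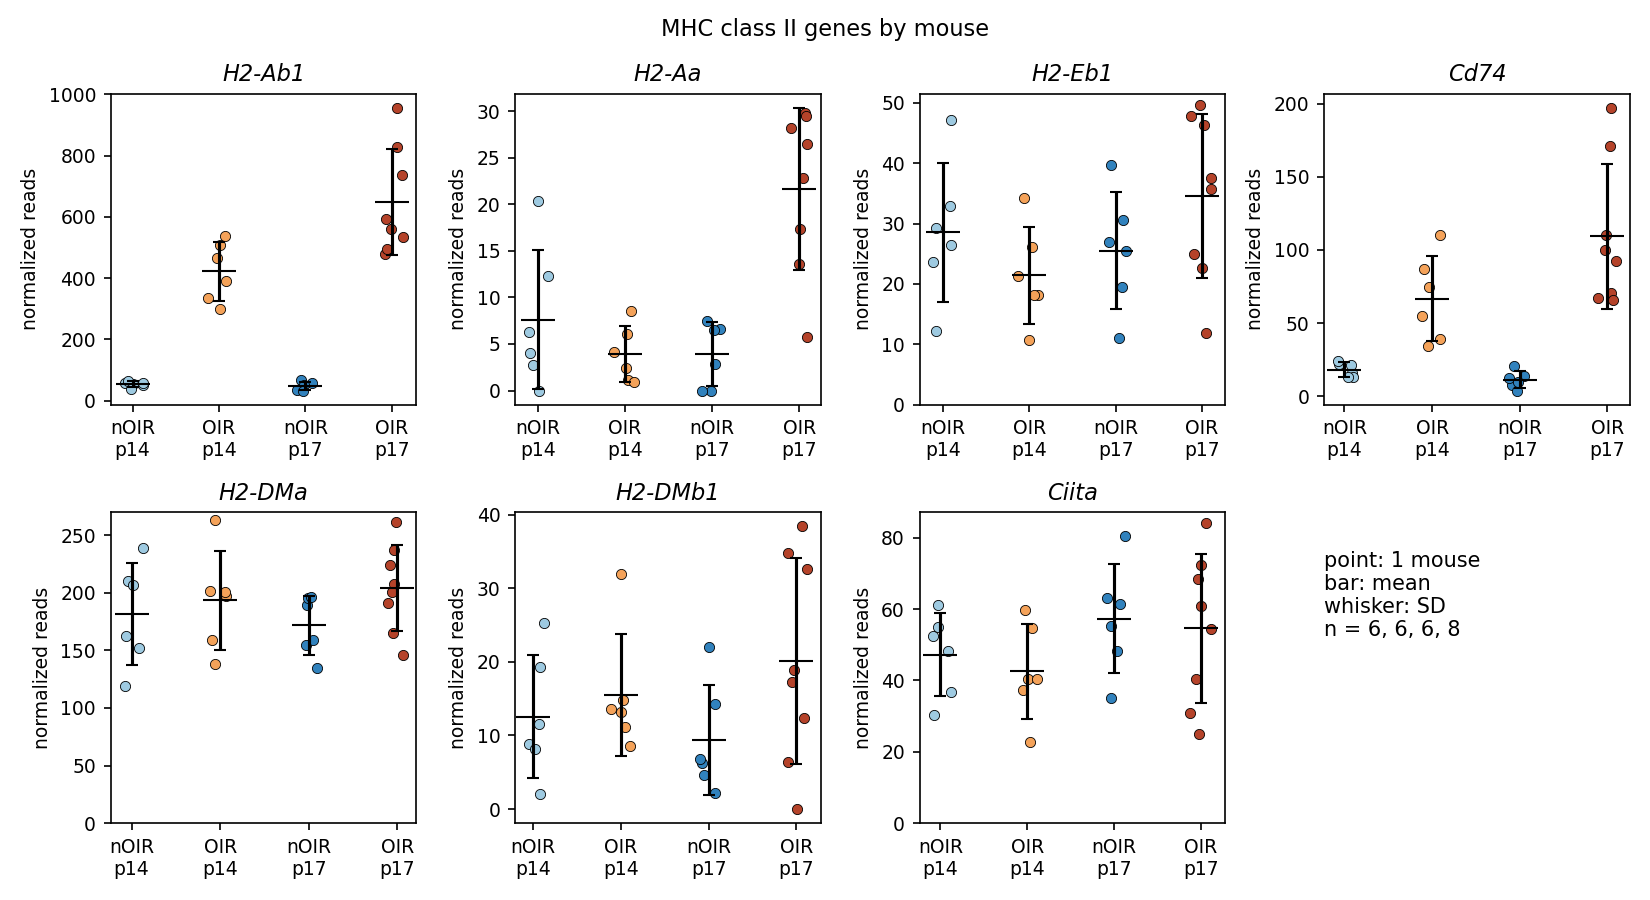
Normalized reads of the 7 class II genes in each of 26 mice (points), with the group mean (bar) and SD (whisker), each gene on its own linear axis. H2-Ab1 and Cd74 separated OIR from nOIR mice at both ages, 7 of 8 OIR p17 mice lay above all nOIR p17 mice for H2-Aa, and the groups overlapped for the other 4 genes.

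H2-Ab1 ranged from 38.7 to 64.1 normalized reads in nOIR p14 mice (median 56.0) and from 299 to 536 in OIR p14 mice (median 428). At p17, it ranged from 32.9 to 66.3 in nOIR mice (median 45.6) and from 479 to 956 in OIR mice (median 577). Every OIR mouse lay above every nOIR mouse at both ages, with a gap of several times the spread among the controls. Groups without overlap, OIR higher, were found for 2 of 7 members at p14, against 1.91% of all genes, and for 2 of 7 at p17, against 3.9%. The group means differed 7.81-fold at p14 and 13.8-fold at p17. By limma, the p14 log2 fold change was 2.93 (SE 0.20, adjusted p = 7.97e-11), and at p17 it was 3.76 (SE 0.18, adjusted p = 5.79e-15). Ordered by adjusted p among genes higher in OIR, H2-Ab1 ranked 2 at p14 and 7 at p17. The exact permutation test (two-sided) gave p = 0.0022 at p14 and p = 3.33e-04 at p17, the smallest values these group sizes allow. No 50-base stretch of its transcripts was shared with a transcript of another gene.

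Cd74, whose product chaperones newly made class II chains, ranged from 12.8 to 24.1 normalized reads in nOIR p14 mice (median 18.7) and from 34.6 to 110 in OIR p14 mice (median 64.5). At p17, it ranged from 3.84 to 20.4 in nOIR mice (median 10.8) and from 65.5 to 197 in OIR mice (median 96.2). The groups did not overlap at either age. The log2 fold change at p14 was 1.74 (SE 0.35, limma adjusted p = 0.00145), under the DEG threshold, and at p17 it was 3.20 (SE 0.32, limma adjusted p = 1.42e-08). The group means differed 3.66-fold and 9.72-fold. The omitted nOIR p14 mouse S4 had 36.7 normalized reads of Cd74, above the lowest OIR p14 mouse, and with it the p14 log2 fold change was 1.59 (limma adjusted p = 0.0027).

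H2-Aa, the alpha chain that pairs with H2-Ab1, was sparse in all groups. It ranged from 0 to 20.4 normalized reads in nOIR p14 mice (median 5.16) and from 0.887 to 8.59 in OIR p14 mice (median 3.33), and these groups overlapped. At p17, it ranged from 0 to 7.44 in nOIR mice (median 4.69) and from 5.78 to 29.8 in OIR mice (median 24.7), and 7 of 8 OIR mice lay above all nOIR mice. The log2 fold change at p14 was -0.50 (95% interval -1.83 to 0.84, limma adjusted p = 0.800) and at p17 it was 2.55 (SE 0.61, limma adjusted p = 0.00368). The exact permutation test gave p = 0.0013 at p17. With a pseudocount of 5 in place of 1, the p17 log2 fold change of H2-Aa was 1.59, below the DEG threshold, and with a pseudocount of 0.1 it was 3.74, and H2-Aa passed limma at an adjusted p under 0.05 with either. In recovered reads, OIR p14 mice had between 1 and 8 reads of H2-Aa and between 342 and 512 reads of H2-Ab1.

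H2-Eb1, the beta chain of the I-E molecule, ranged from 12.1 to 47.1 normalized reads in nOIR p14 mice (median 27.9) and from 10.7 to 34.3 in OIR p14 mice (median 19.7). At p17, it ranged from 11.0 to 39.7 in nOIR mice (median 26.2) and from 11.9 to 49.6 in OIR mice (median 36.6). The groups overlapped at both ages. The log2 fold change at p14 was -0.38 (95% interval -1.12 to 0.37, limma adjusted p = 0.693) and at p17 it was 0.40 (95% interval -0.30 to 1.09, limma adjusted p = 0.550). Changes of the size seen for H2-Ab1 lay outside these intervals. H2-Ea, the partner chain of I-E, was at 0 in all mice of 3 groups and did not pass the filter; C57BL/6 mice are known to make no I-E protein.

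H2-DMa and H2-DMb1 form H2-DM, which loads peptides onto class II molecules in the endosome. H2-DMa ranged from 119 to 239 normalized reads over nOIR p14 mice and from 138 to 263 over OIR p14 mice, with medians of 184 and 199. At p17, its medians were 174 in nOIR and 204 in OIR mice. H2-DMa had a log2 fold change of 0.10 for p14 (95% interval -0.26 to 0.46) and 0.24 for p17 (95% interval -0.10 to 0.58), with limma adjusted p of 0.869 and 0.433. For H2-DMb1, the medians were 10.2 in nOIR and 13.4 in OIR mice at p14, and 6.56 in nOIR and 18.1 in OIR mice at p17, of which 1 OIR mouse was at 0. Its log2 fold change at p14 was 0.46 (95% interval -0.92 to 1.84, limma adjusted p = 0.826) and at p17 it was 0.76 (95% interval -0.53 to 2.05, limma adjusted p = 0.535). The p14 value of H2-DMb1 ranged from 0.086 to 0.71 without 1 mouse, and was 0.96 (limma adjusted p = 0.559) with nOIR p14 mouse S4 included. The p17 value of H2-DMb1 was 1.31 (limma adjusted p = 0.0812) without OIR p17 mouse S1, the mouse at 0, and 0.47 (limma adjusted p = 0.765) without nOIR p17 mouse S6. The intervals of H2-DMa were narrow and those of H2-DMb1 wide. Of the 50-base stretches of H2-DMb1, 22.7% also occurred in H2-DMb2, a separate gene on the same strand, so reads from the shared stretches could not be assigned to one of the pair by sequence. For H2-DMa, 8.43% of the stretches occurred in Brd2, which overlaps it on the other strand, and counting did not use strand.

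Ciita, the transactivator that sets class II transcription in many cell types, ranged from 30.3 to 61.1 normalized reads in nOIR p14 mice (median 50.3) and from 22.8 to 59.7 in OIR p14 mice (median 40.3). At p17, it ranged from 35.1 to 80.5 in nOIR mice (median 58.3) and from 25.05 to 84.1 in OIR mice (median 57.7). OIR and nOIR mice overlapped at both ages. The log2 fold change at p14 was -0.17 (95% interval -0.76 to 0.42, limma adjusted p = 0.858) and at p17 it was -0.13 (95% interval -0.68 to 0.43, limma adjusted p = 0.848).

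**Figure D2:**
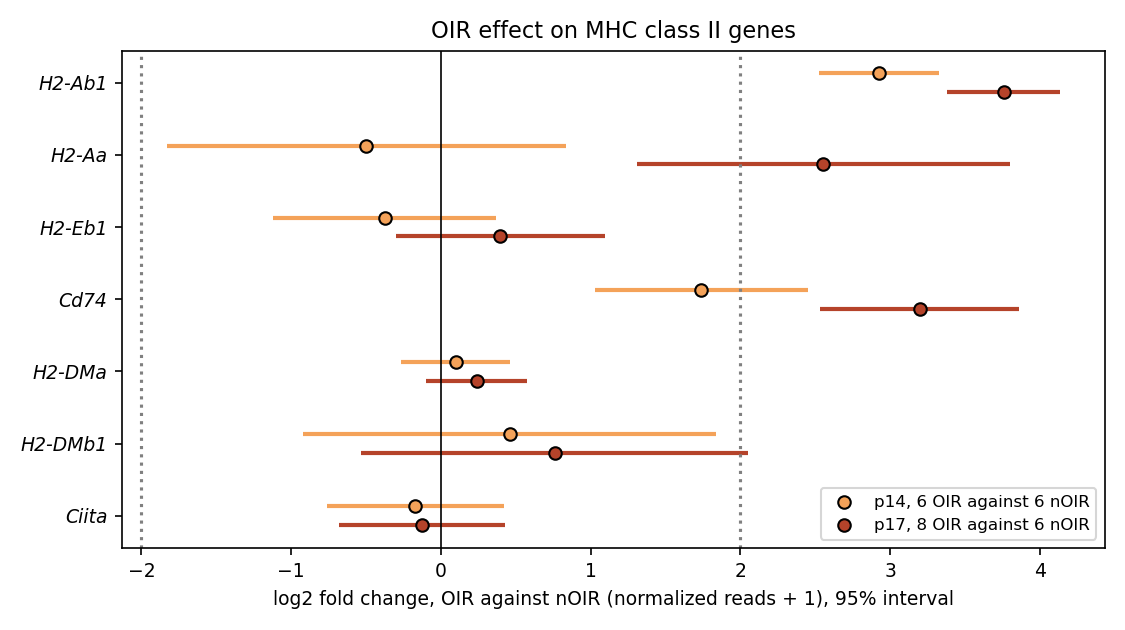
Log2 fold change of OIR against nOIR for each class II gene at p14 and at p17 (points) with its 95% interval (lines), on the scale of log2(normalized reads + 1). Dotted lines mark the DEG threshold of 2 and -2. The intervals of H2-Ab1 and Cd74 lay above 0 at both ages, that of H2-Aa only at p17, and those of the other 4 genes crossed 0.

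Levels of different genes were compared per kilobase of exon (normalized reads per kb, exon lengths from GENCODE M21). In nOIR p14 mice, H2-DMa stood highest at 52.6 ± 12.9 (SD, n = 6), followed by H2-Ab1 at 21.1 ± 3.31. Then came H2-Eb1 at 14.7 ± 5.92, Cd74 at 10.8 ± 2.89, H2-DMb1 at 7.46 ± 4.99, Ciita at 4.95 ± 1.22 and H2-Aa at 2.00 ± 1.97. H2-DMa and H2-Ab1 did not overlap between mice there, while H2-Ab1 and H2-Eb1 did. In OIR p17 mice, H2-Ab1 stood highest at 252 ± 67.5 (SD, n = 8), followed by Cd74 at 65.0 ± 29.4 and H2-DMa at 59.2 ± 10.8, which overlapped each other. H2-Aa had the lowest mean in nOIR p14, OIR p14 and nOIR p17 mice. In OIR p17 mice, H2-Aa at 5.71 ± 2.29 per kb and Ciita at 5.72 ± 2.19 overlapped and could not be ordered. Within a mouse, the per-kb ratio of H2-Aa to H2-Ab1 had a median of 0.0785 in nOIR and 0.0054 in OIR mice at p14, and of 0.0588 in nOIR and 0.0209 in OIR mice at p17. The ratio of H2-Eb1 to H2-Ab1 had medians of 0.626, 0.0723, 0.827 and 0.0642 in the same order. The ratio of H2-Eb1 did not overlap between nOIR and OIR mice at either age. The ratio of H2-Aa overlapped at both ages, with ranges of 0 to 0.215 in nOIR and 0.0018 to 0.0124 in OIR mice at p14, and of 0 to 0.153 in nOIR and 0.0073 to 0.0406 in OIR mice at p17. The nOIR mice at 0 (1 at p14 and 2 at p17) had no H2-Aa reads and lay below all OIR mice of their age.

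Between p14 and p17, 2 of 7 members were higher at p17 within OIR mice (adjusted p under 0.05), against 4.11% of all genes, and 1 was a DEG, against 0.45%. H2-Aa differed by 2.32 on the log2 scale (SE 0.61, limma adjusted p = 0.0177), and 7 of 8 OIR p17 mice lay above all OIR p14 mice. This call of H2-Aa was lost with a pseudocount of 0.1 (log2 fold change 2.71, limma adjusted p = 0.149) and without OIR p14 mouse S4 (2.10, limma adjusted p = 0.0504). H2-Ab1 differed by 0.61 (SE 0.18, limma adjusted p = 0.0464). This call of H2-Ab1 was lost under 6 of 11 alternative settings, with adjusted p between 0.0538 and 0.0953. Cd74 differed by 0.71 (95% interval 0.04 to 1.37, limma adjusted p = 0.235). In nOIR mice, 0 of 7 members differed between the ages by limma, edgeR or DESeq2, and 1 (Cd74, log2 fold change -0.75) had an unadjusted limma p under 0.05. By limma, 0.158% of all genes were higher and 0.158% lower (43 and 43 genes). Without nOIR p14 mouse S3, limma called 22 genes higher and 12 lower, and with all mice DESeq2 called 109 and 127.

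Whether the OIR effect differed between the ages was tested directly. None of the 7 members passed by limma or edgeR, against 1.43% of all genes with a larger effect at p17, while DESeq2 called 1 (H2-Aa). Without adjustment, 3 members had a p under 0.05. The effect at p17 exceeded that at p14 by 3.05 on the log2 scale for H2-Aa (SE 0.89, limma adjusted p = 0.0903), by 1.46 for Cd74 (SE 0.47, limma adjusted p = 0.153) and by 0.83 for H2-Ab1 (SE 0.27, limma adjusted p = 0.151). The call of this difference for H2-Aa depended on the setting. With a pseudocount of 5 it was 1.96 (limma adjusted p = 0.0285), and without nOIR p14 mouse S1, which had 0 reads of H2-Aa, it was 3.56 (limma adjusted p = 0.0195).

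The genes that flank H2-Ab1 are mostly antigen presentation genes too. Of 16 protein-coding genes within 150 kb of H2-Ab1, 13 were tested. Of the other 12 tested genes, 1 was higher in OIR at p14, against 3.18% of all genes, and 5 were higher at p17, against 7.39%. At p17, these were H2-Aa and 4 genes of the class I pathway. Psmb8 and Psmb9, subunits of the immunoproteasome that cuts peptides for class I, had p17 log2 fold changes of 1.15 and 1.03 (limma adjusted p = 0.000146 and 0.000197). Tap1 and Tap2, which pump those peptides into the endoplasmic reticulum, rose by 1.19 and 0.70 (limma adjusted p = 0.00189 and 0.000330). At p14, the gene that rose was BC051142 (log2 fold change 1.12, limma adjusted p = 0.00124). The log2 fold change of H2-Ab1 was above that of each tested neighbour at both ages, although the p17 interval of H2-Aa (1.31 to 3.80) reached it.

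**Figure D3:**
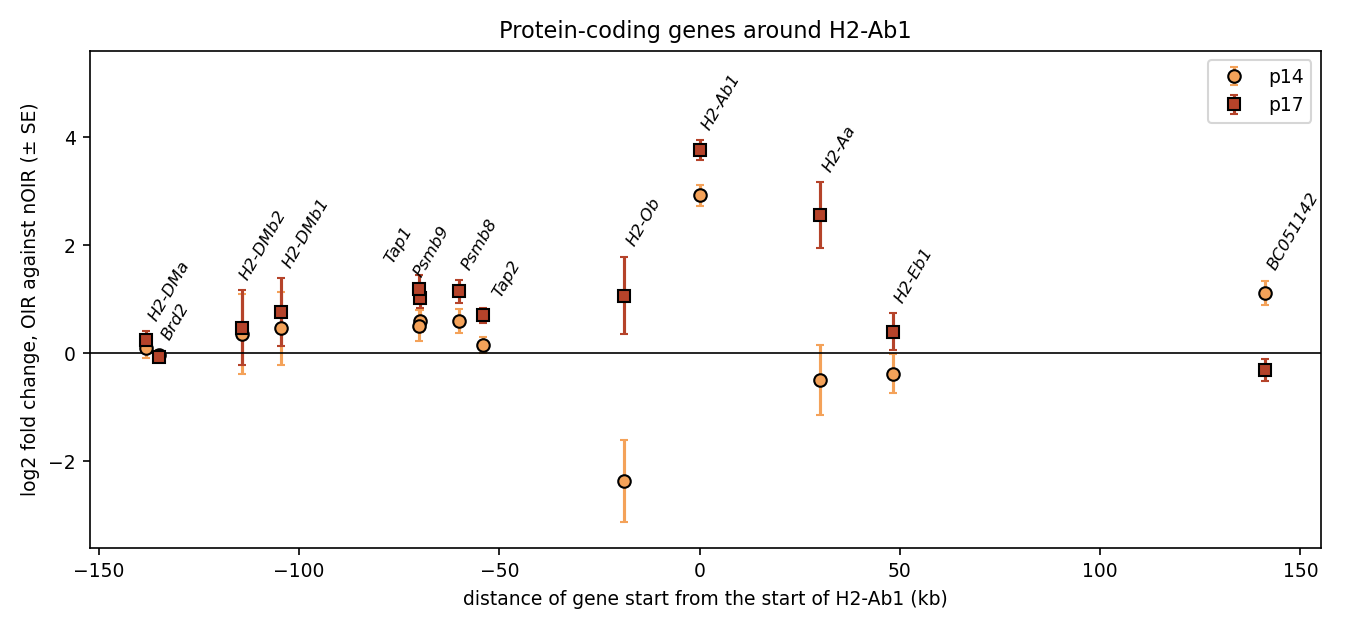
Log2 fold change of OIR against nOIR (points, with SE) at p14 and p17 for the tested protein-coding genes around H2-Ab1, by the distance in kb of each gene's start from that of H2-Ab1. H2-Ab1 stood above its neighbours at both ages, and H2-Aa, Psmb8, Psmb9, Tap1 and Tap2 rose at p17.

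Other genes of the pathway were counted from lists. Over all genes tested, 3.18% were higher and 2.91% lower at p14, and 7.39% were higher and 5.12% lower at p17. No list count was tested against these shares. Genes named from them are the DEG, the most abundant gene of a list and, for counts of 5 or fewer, most of those that made up the count, which were picked after their values were seen. Among the other class II genes, 3 of 5 were tested and none passed by limma at either age. H2-Ob, part of the H2-O inhibitor of H2-DM, had medians of 6.15 normalized reads in nOIR p14 and 0 in OIR p14 mice (log2 fold change -2.36, limma adjusted p = 0.0653). Of the 7 genes of the promoter complex, 1 was lower at each age, against 2.91% and 5.12% of all genes, and none higher. This was Rfx5, a subunit of the RFX complex, which fell by 0.50 on the log2 scale in the p14 comparison and by 0.43 in the p17 comparison (limma adjusted p = 0.0108 and 0.00923). Creb1, the most abundant of that list, had log2 fold changes of 0.09 and -0.01.

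Of 7 measured genes of the interferon gamma axis, 2 were higher at p14 and 1 at p17, against 3.18% and 7.39% of all genes. Irf1, a transcription factor induced by interferons, rose by 0.89 at p14 and 0.99 at p17 (limma adjusted p = 0.00606 and 0.000386). Jak1, the most abundant of this list, had log2 fold changes of 0.08 and 0.01. Ifng itself had no row in the table.

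Of 7 genes of endosomal processing, 0 passed at p14 and 3 rose at p17, against 7.39% of all genes higher at p17. The 3 were Ctss, the protease that trims the invariant chain (1.13 on the log2 scale, limma adjusted p = 8.29e-06), Ifi30, a thiol reductase (0.82), and Ctsd, an aspartic protease (0.45). Ctsb, the most abundant, had log2 fold changes of -0.10 and 0.06. None of 3 genes that turn class II over at the surface passed at either age, with Marchf1, the ubiquitin ligase of class II, at 0.29 and 0.07. The summed level of these 3 genes, most of it Marchf1, was 7220 to 8482 normalized reads in nOIR p14 and 8633 to 11298 in OIR p14 mice, with no overlap. Singly, each of the 3 genes overlapped at p14, and the sum was not tested. For comparison, 1.91% of all single genes had no overlap with OIR higher at p14. The p17 groups overlapped in the sum.

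Of 5 costimulation genes, 1 was higher at p14 and 3 at p17, against 3.18% and 7.39% of all genes. Cd86, a ligand that costimulates T cells through CD28, had medians of 3.59 normalized reads in nOIR and 30.9 in OIR mice at p14, and of 5.20 in nOIR and 31.4 in OIR mice at p17. It was a DEG at both ages, with log2 fold changes of 2.72 and 2.46 (limma adjusted p = 0.00199 and 0.00115). At p17, Cd40, a receptor on antigen-presenting cells, rose by 1.73 and Cd274, which encodes PD-L1, by 1.43.

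**Figure D4:**
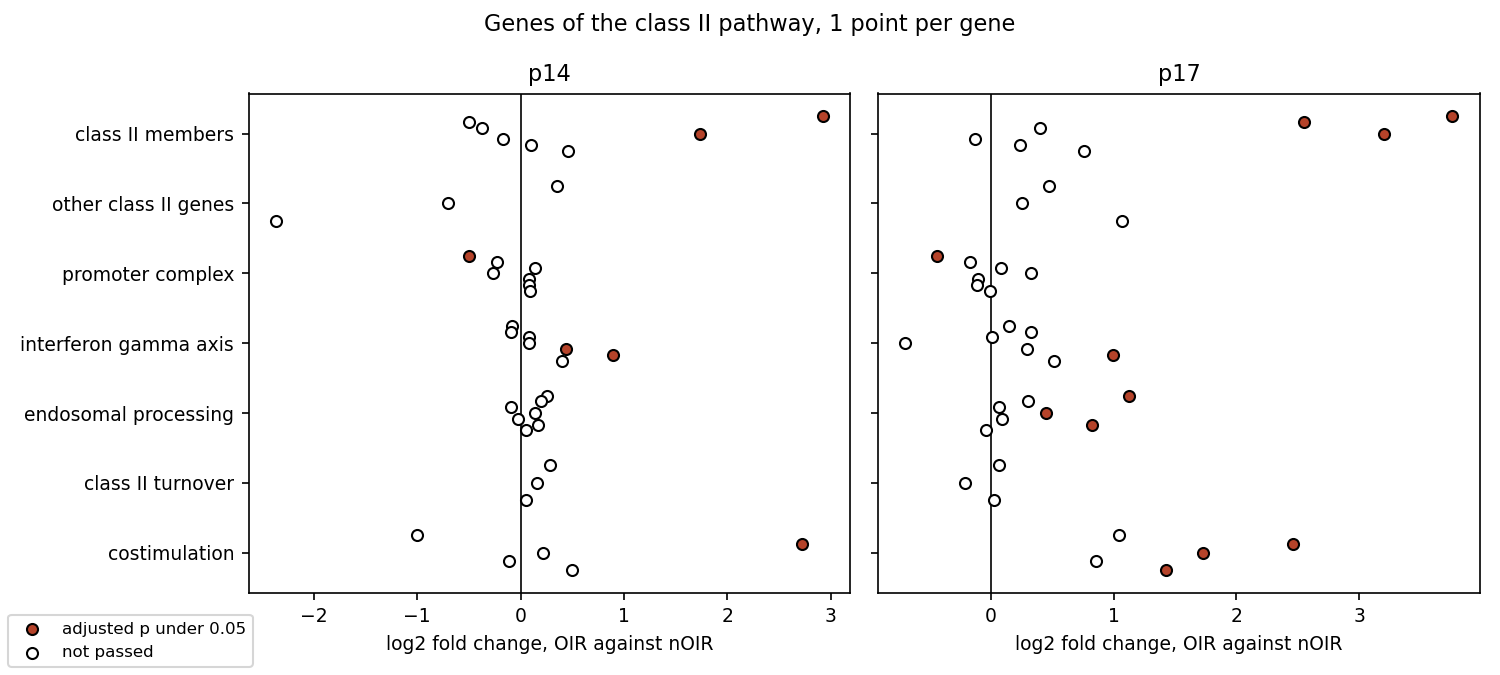
Log2 fold change of OIR against nOIR for each tested gene (points) of 7 lists of the class II pathway, at p14 (left) and p17 (right). Filled points passed the limma test at an adjusted p under 0.05. The points above 2 were H2-Ab1 and Cd86 at p14, and H2-Ab1, Cd74, H2-Aa and Cd86 at p17.

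Markers of cells that can carry class II were read in the same libraries. Their counts, here and for the other cell types below, were not tested against the shares over all genes. Those shares were 3.18% higher and 2.91% lower at p14, and 7.39% higher and 5.12% lower at p17. None of 8 microglia markers passed at p14, when H2-Ab1 and Cd74 were already higher, and their summed level overlapped, at 1991 to 2521 normalized reads in nOIR and 1794 to 2843 in OIR mice. At p17, 4 of 8 rose (among them Cx3cr1 by 1.62, Aif1 by 1.67 and Csf1r by 0.97 on the log2 scale), and the sums were 1683 to 2026 in nOIR and 2596 to 4027 in OIR mice, without overlap. None of the 8 was at 0 in all mice of a group. Of 4 pan-leukocyte markers, Cd53 was higher (0.74) and Coro1a lower (-0.42) at p14, with sums of 805 to 1129 in nOIR and 871 to 1082 in OIR mice. At p17, all 4 were higher, led by Ptprc, which encodes CD45 (2.71), with sums of 748 to 858 in nOIR and 1195 to 2017 in OIR mice.

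**Figure D5:**
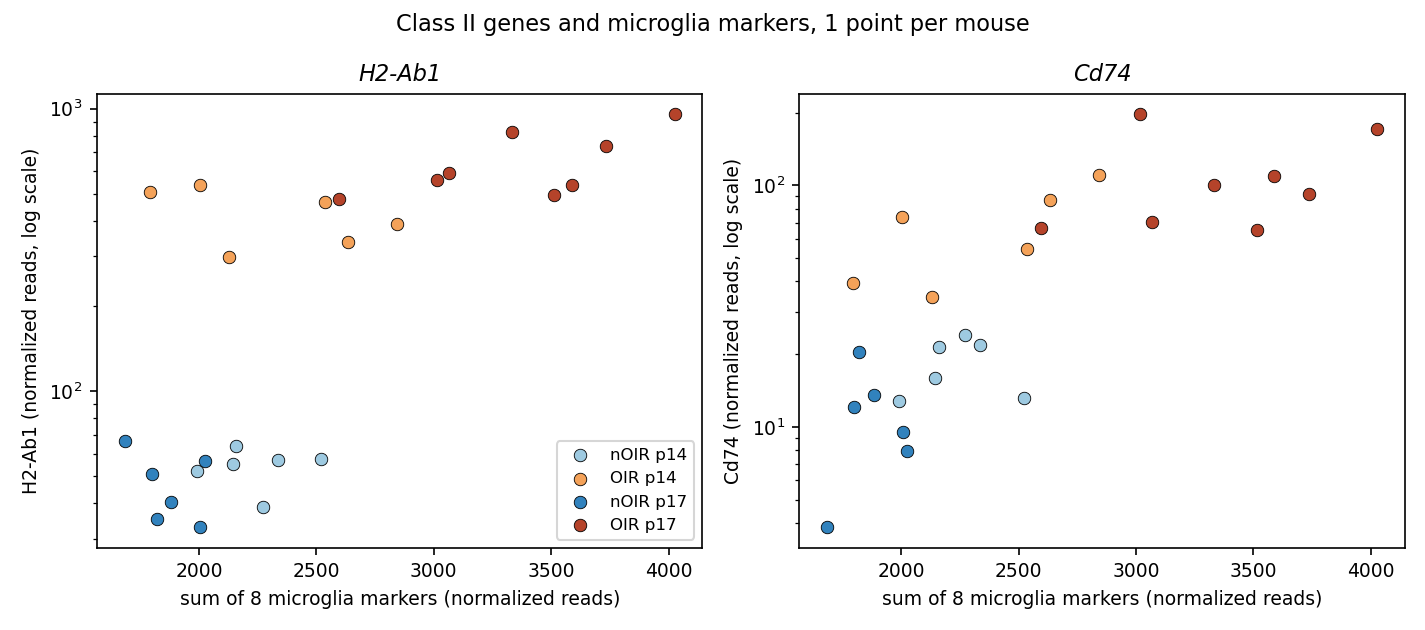
Normalized reads of H2-Ab1 (left) and Cd74 (right), on a log axis, against the sum of 8 microglia markers, with 1 point per mouse. OIR p14 mice spanned the marker sums of the nOIR p14 mice (1991 to 2521) yet lay above them in both genes, while OIR p17 mice were higher on both axes.

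Markers of perivascular macrophages, 6 in all, did not pass at p14. At p17, 5 of them rose as DEG (Pf4 by 4.87, F13a1 by 3.92, Cd163 by 3.54, Mrc1 by 3.26 and Ms4a7 by 2.48) and Lyve1, the most abundant, fell by 0.92. Their sums overlapped at both ages (622 to 840 in nOIR and 475 to 791 in OIR mice at p14, 740 to 953 in nOIR and 535 to 821 in OIR mice at p17). Of 8 tested dendritic cell markers, 0 passed at p14 and 1 at p17 (Itgax, which encodes CD11c, by 3.41), against 7.39% of all genes higher at p17. Their sums were 418 to 646, 514 to 731, 419 to 585 and 372 to 874 in the same order. At p17, Ccr7 (1.87), Batf3 (1.63) and Clec9a (1.54) did not pass, nor did Flt3 (-0.81), Xcr1 (-0.96) and Clec10a (-1.22). Cd209a was at 0 in all mice of 3 groups. Zbtb46, the most abundant of the dendritic cell markers (mean 432 normalized reads over the 26 mice), had log2 fold changes of 0.28 and 0.28.

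B cell markers did not pass at p14, and 2 of 5 rose at p17 (Cd79b by 3.04 and Pax5 by 1.81), with sums of 17.8 to 107, 13.7 to 79.8, 21.2 to 57.3 and 52.9 to 91.5 in the same order. The p17 log2 fold change of Ms4a1, which encodes CD20 of B cells, was 0.16. None of 4 tested T cell markers passed, and Cd3e, Cd3d and Cd3g were at 0 in all OIR p14 mice. Of 3 tested monocyte markers, Plac8 (2.83) and Ccr2 (1.74) rose at p17, and of 3 tested neutrophil markers S100a8 (2.03) did. All 5 red cell markers rose at p17, with sums of 195 to 1191 in nOIR and 1227 to 16980 in OIR mice. The part of these cells in the class II values at p17 was not tested.

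The genes whose pattern was most like the mean of the 7 members, by Pearson correlation over 26 mice among 18997 genes, were Tyrobp (r = 0.92), C1qb (0.90), C1qa (0.90), C1qc (0.90) and Cavin3 (0.90). The mice share their 4 groups, so such values follow group differences. Over deviations from the group means, the leading genes were Gm15327 (0.80), Tmem150c (0.78), Pdap1 (0.76), Spp2 (0.75) and Msl3l2 (0.75). For H2-Ab1 alone, a measure added after the values were seen, they were Ndufa4l2 (0.98), Adm (0.97), Tagln2 (0.97), Tubb6 (0.97) and Hsd17b2 (0.97) over the 26 mice. None of these was among the 5 leading genes for H2-Ab1 over deviations from the group means, which were Tubd1 (0.78), Erf (0.74), Gfer (0.74), Nr1h2 (0.71) and Ttll1 (0.71). For Cd74, Frmd8 was among the 5 leading genes by both measures (0.94 over the 26 mice and 0.63 over deviations from the group means). The measures are not independent, because the values over the 26 mice contain the deviations. Each set of 5 holds the highest of 18997 correlations, and none was tested. H2-Ab1 and Cd74 correlated at r = 0.89 over the 26 mice and at -0.10 over deviations from the group means.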

How the data were processed

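Whole retinas of mice were sequenced by the authors from SMARTer v4 cDNA as unstranded single reads of 50 bases. Per the submitters' processing notes, the authors used FastQC 0.73, STAR 2.7.8a, featureCounts 2.0.1, R 4.0.3 and DESeq2 1.34. The methods name the Gencode M28 annotation. The deposited signal is normalized reads, that is counts divided by the size factor of each mouse. The table also holds the authors' group means, the authors' log2 fold changes and the authors' adjusted p-values, which were not used. All deposited values were whole multiples of 1 step per mouse (100% of values, within 1e-06), so whole reads were recovered. For 3 mice (nOIR p14 S4, OIR p14 S3 and OIR p17 S4), this step lay within 1% of 1, and a unit check did not accept their reads as recovered. Their values were used like those of the other mice. Reads were not collapsed to molecules. The closest pair of mice in a group had a chi-square of 9.39 per degree of freedom between their reads, so no library was counted as a copy.

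Limma 3.58.1 (lmFit, eBayes with trend) in R 4.3.3 was fitted to log2(normalized reads + 1) in all 4 groups, for the 27137 genes with a mean of at least 1, with Benjamini-Hochberg adjustment. Fold changes on this scale understate the change of low genes. Genes past an adjusted p of 0.05 with log2 fold changes beyond 2 or -2 were called DEG. Exact permutation tests (two-sided, scipy 1.17.1) used the same values. Alternatives were other pseudocounts, filters, scalings and sample sets, a block by mouse number, edgeR 4.0.16, DESeq2 1.42.0 and leaving out each mouse. The method was tested on simulated data. Members and gene lists were chosen with earlier results of these data known. All 7 members are named. From other lists, DEG and the gene with the highest mean are named, as are the 5 non-member genes (mean of at least 10) most correlated with the members' mean. Lengths, neighbours and promoters come from GRCm38, not the build of the counts. Human samples were not analysed here. The values of some list genes are not reported here.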

Additional observations from a re-analysis of the deposited data

Results flagged for a closer look

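Within the 4 groups, 28 sets of values were examined for a mouse far from the rest, a check that chance passes in about 1 of 20 sets. H2-DMb1 in OIR p14 mouse S4 stood apart at 31.9 normalized reads, with the next mouse of its group at 14.8. In the omitted nOIR p14 mouse S4, Cd74 was listed at 36.7 normalized reads, above the 24.1 of the highest other nOIR p14 mouse. The cause of either value was not tested.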

How the results depend on the processing

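At p14 and at p17, the counts of members higher at an adjusted p under 0.05 (2 and 3) were the same under all 11 alternatives and all 26 fits without 1 mouse. The count of DEG at p17 was 2 with a pseudocount of 5. No scaling moved the median log2 fold change of all genes by more than 0.1. For the difference of the OIR effects, the count of members with a larger effect at p17 was 1 in place of 0 with a pseudocount of 5 and with DESeq2 (DEG, 1 with DESeq2), in each case H2-Aa. Without 1 mouse, both counts ranged from 0 to 1. For p17 against p14 in OIR mice, the count was 1 in place of 2 with a pseudocount of 0.1, all genes above 0, S4 included, the compared groups alone, the replicate block, the same total and quantile normalization. The DEG count there was 0 in place of 1 with a pseudocount of 0.1 or 5. Without 1 mouse, these counts ranged from 0 to 2 and from 0 to 1. The call of H2-Ab1 there was lost without nOIR p14 S1, S2, S3, S5 or S6, nOIR p17 S1 or S4, OIR p14 S1, S2, S4 or S6, or OIR p17 S2, S3, S7 or S8 (adjusted p 0.0501 to 0.140), and that of H2-Aa with a pseudocount of 0.1 (0.149) or without OIR p14 S4 (0.0504). The difference of effects of H2-DMb1 reversed to -0.050 with a pseudocount of 0.1, -0.20 with S4 included and -0.040 with the replicate block. Without 1 mouse, it ranged from -0.12 to 0.19 for Ciita, and the effects ranged from -0.014 to 0.19 for H2-DMa at p14 and from -0.26 to 0.014 for Ciita at p17. In the same fits, the p14 effects ranged from -1.01 to -0.12 for H2-Aa, from -0.59 to -0.20 for H2-Eb1 and from -0.29 to -0.0095 for Ciita. The p17 effect of H2-Eb1 ranged from 0.19 to 0.59 in them. The cause of these changes was not tested.

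Mice of the same number correlated between -0.19 and 0.25 in their deviations from the group means, and most did not match best with their own number, so the numbers do not pair the mice. With the replicate block, 2 members were higher in OIR at p14 and 3 at p17, as without it, and 1 in place of 2 was higher at p17 than at p14 in OIR mice.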
